A study of Homo sapiens with 6 samples.

Results

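The HOX gene clusters were examined for peaks of 2 chromatin proteins in IMR90, human fetal lung fibroblasts that stop dividing after many passages. They are the 39 genes whose symbols read HOXA, HOXB, HOXC or HOXD followed by digits, and each of the 4 clusters was taken from its first to its last gene with 50 kb on either side. Peaks came from CUT&Tag, in which an antibody directs a transposase to chromatin so that the DNA around the bound protein is cut out and sequenced. Of 65597 peaks in 6 lists, 69 had their summit in these windows, 29 for CTCF and 40 for SMC1. CTCF is a zinc-finger protein that binds DNA and insulates neighbouring regions, and SMC1 is a subunit of cohesin, the ring that extrudes chromatin loops.

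Each antibody was applied to a control, an ICM-treated and a senescent culture, so the design held 1 library per group. ICM is inflachromene, a small molecule that binds HMGB proteins. For CTCF the control was labelled p21, the treated cells p16 with ICM for 6 days, and the senescent cells p34. For SMC1 the labels were p16, p16 with ICM but without a stated number of days, and p34. The p34 titles name no treatment, and they were read as senescent because the series describes a high-passage senescent culture for each antibody. The CTCF control and the CTCF treated cells thus differed in p number as well as in treatment, and these cannot be told apart. The control libraries of CTCF and SMC1 also differed in p number, so the proteins were not compared in matched control cells. No replicate existed, so what follows describes 6 peak lists without a test. A peak missing from a list means only that it was not among the regions that the authors kept, which were the top 1%. The number of reads behind each list is not known here.

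HOX genes encode homeodomain transcription factors that give cells their position along the body axis, and their order on the chromosome follows the order of the body regions in which they act. Adult fibroblasts keep a HOX pattern that reflects the site they came from, whereas the IMR90 cells used here are fetal. Within the clusters, CTCF sites between neighbouring genes are known to separate active chromatin from chromatin held silent by Polycomb proteins, and cohesin tends to halt at CTCF. The coordinates below are those of hg38. The HOXA cluster lies on chromosome 7 (107.1 kb, 11 genes, minus strand), HOXB spans chr17:48528526-48728750 (200.2 kb, 10 genes, minus strand), HOXC chr12:53938831-54056030 (117.2 kb, 9 genes, plus strand) and HOXD chr2:176087487-176190907 (103.4 kb, 9 genes, plus strand). RNA was not among these data, so the identity of the cells was looked at through SMC1 peaks within 1 kb of gene starts, which 31.9% of coding genes had in control, 27.9% in ICM and 22.5% in senescent cells. For 6 fibroblast markers such peaks were listed at 4 genes in control, 3 in ICM and 3 in senescent cells, and VIM, which encodes the intermediate filament protein of fibroblasts, and COL1A2, which encodes a chain of type I collagen, had one in each list. Of 3 genes of lung mesenchyme, FOXF1 had one in each list, and TBX4 and TBX5 had none. KRT8, which encodes an epithelial keratin, was the 1 of 4 epithelial markers with such a peak, in control and senescent cells. Lists this short give little ground to tell these shares from those of all coding genes.

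Sequences were available for 27 promoter windows of 20 of the 39 HOX genes (RefSeq, GRCh38.p14), each running from 250 bases before to 50 bases after an annotated start. HOXA5 and HOXB5 were not among them. The first sequence is shown because it is a HOX promoter in which CTCF summits fell in treated and senescent cells, and it starts a shorter transcript of HOXA3, a gene that patterns the neck and pharynx. The capitals mark 11 bases around each summit, of which the first belongs to ICM-treated and the second to senescent cells (chr7:27150901-27151200, minus strand).
HOXA3: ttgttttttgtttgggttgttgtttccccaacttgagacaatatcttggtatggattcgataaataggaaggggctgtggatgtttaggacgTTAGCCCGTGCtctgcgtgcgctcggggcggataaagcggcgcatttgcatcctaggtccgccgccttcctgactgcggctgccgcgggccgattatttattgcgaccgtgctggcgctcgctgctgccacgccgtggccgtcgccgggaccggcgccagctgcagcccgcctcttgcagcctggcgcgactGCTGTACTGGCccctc
The second lies under an SMC1 peak of control cells and belongs to HOXA4, an anterior gene of the same cluster. Its capitals mark 11 bases around the annotated start (chr7:27130708-27131007, minus strand).
HOXA4: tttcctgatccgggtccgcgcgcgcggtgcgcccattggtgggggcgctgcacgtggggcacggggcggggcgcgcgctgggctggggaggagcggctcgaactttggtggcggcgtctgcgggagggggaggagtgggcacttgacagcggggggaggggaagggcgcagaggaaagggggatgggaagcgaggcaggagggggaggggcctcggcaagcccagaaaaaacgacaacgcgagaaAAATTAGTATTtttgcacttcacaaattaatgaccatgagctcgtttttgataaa
The third comes from HOXA10, known from the uterus and the posterior body, and is the 1 of the 27 windows that held a match to the central letters of the consensus CTCF motif, searched on both strands. The match, CCACGAGATGGC, stands in capitals, and no peak of any list overlapped this window (chr7:27179812-27180111, minus strand).
HOXA10: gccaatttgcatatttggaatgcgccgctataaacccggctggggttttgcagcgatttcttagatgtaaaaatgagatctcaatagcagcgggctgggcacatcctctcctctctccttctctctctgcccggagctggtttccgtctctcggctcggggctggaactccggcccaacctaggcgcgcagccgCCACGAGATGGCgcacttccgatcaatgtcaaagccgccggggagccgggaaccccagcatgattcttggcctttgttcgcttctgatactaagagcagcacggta
Over all 35116 promoter windows of this length, 845 (2.41%) held such a match. The HOX windows had a median GC content of 58.0% (range 43.7% to 76.3%), against 58.7% over all windows, and a median of 22 CpG dinucleotides, against 14. The HOX windows are not all separate promoters, since several are starts of HOXA3 and those of HOXC4 and HOXC5 are identical. The rule for choosing sequences named HOXA10, while HOXA3 and HOXA4 were chosen after their peaks had been seen.

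Every CTCF peak of the HOX windows lay between the first and the last gene of its cluster. The control list held 6 such peaks, the ICM list 11 and the senescent list 12. Joined across lists by 100 bp windows around the summits, they formed 16 loci out of 11380 in the genome, and none lay in the 50 kb flanks. The whole lists also grew in this order, from 4673 to 6728 and 8577 peaks. Per Mb of window the lists held 6.47, 11.9 and 12.9 peaks, against 1.54, 2.22 and 2.83 per Mb of all chromosomes. HOXB took 2, 4 and 6 of these peaks, HOXA 2, 4 and 3, HOXD 1, 2 and 2, and HOXC 1 in each list.

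For SMC1 the windows held 15 peaks in control, 14 in ICM and 11 in senescent cells. Between the first and the last gene of a cluster there were 11, 8 and 9, so the order of the 3 lists depended on the flanks. The SMC1 peaks of the windows formed 26 loci out of 27636, of which 20 lay inside clusters. The other 6 all lay 3′ of HOXB1, the anterior end of that cluster. Whole SMC1 lists ran to 14883, 17809 and 12927 peaks, and the windows held 16.2, 15.1 and 11.9 peaks per Mb against 4.91, 5.88 and 4.27 over the chromosomes. HOXB held 9, 10 and 6 of them, HOXA 5, 3 and 3, and HOXD 1 in each list. HOXC had none in control or ICM cells and 1 in senescent cells.

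**Figure D1:**
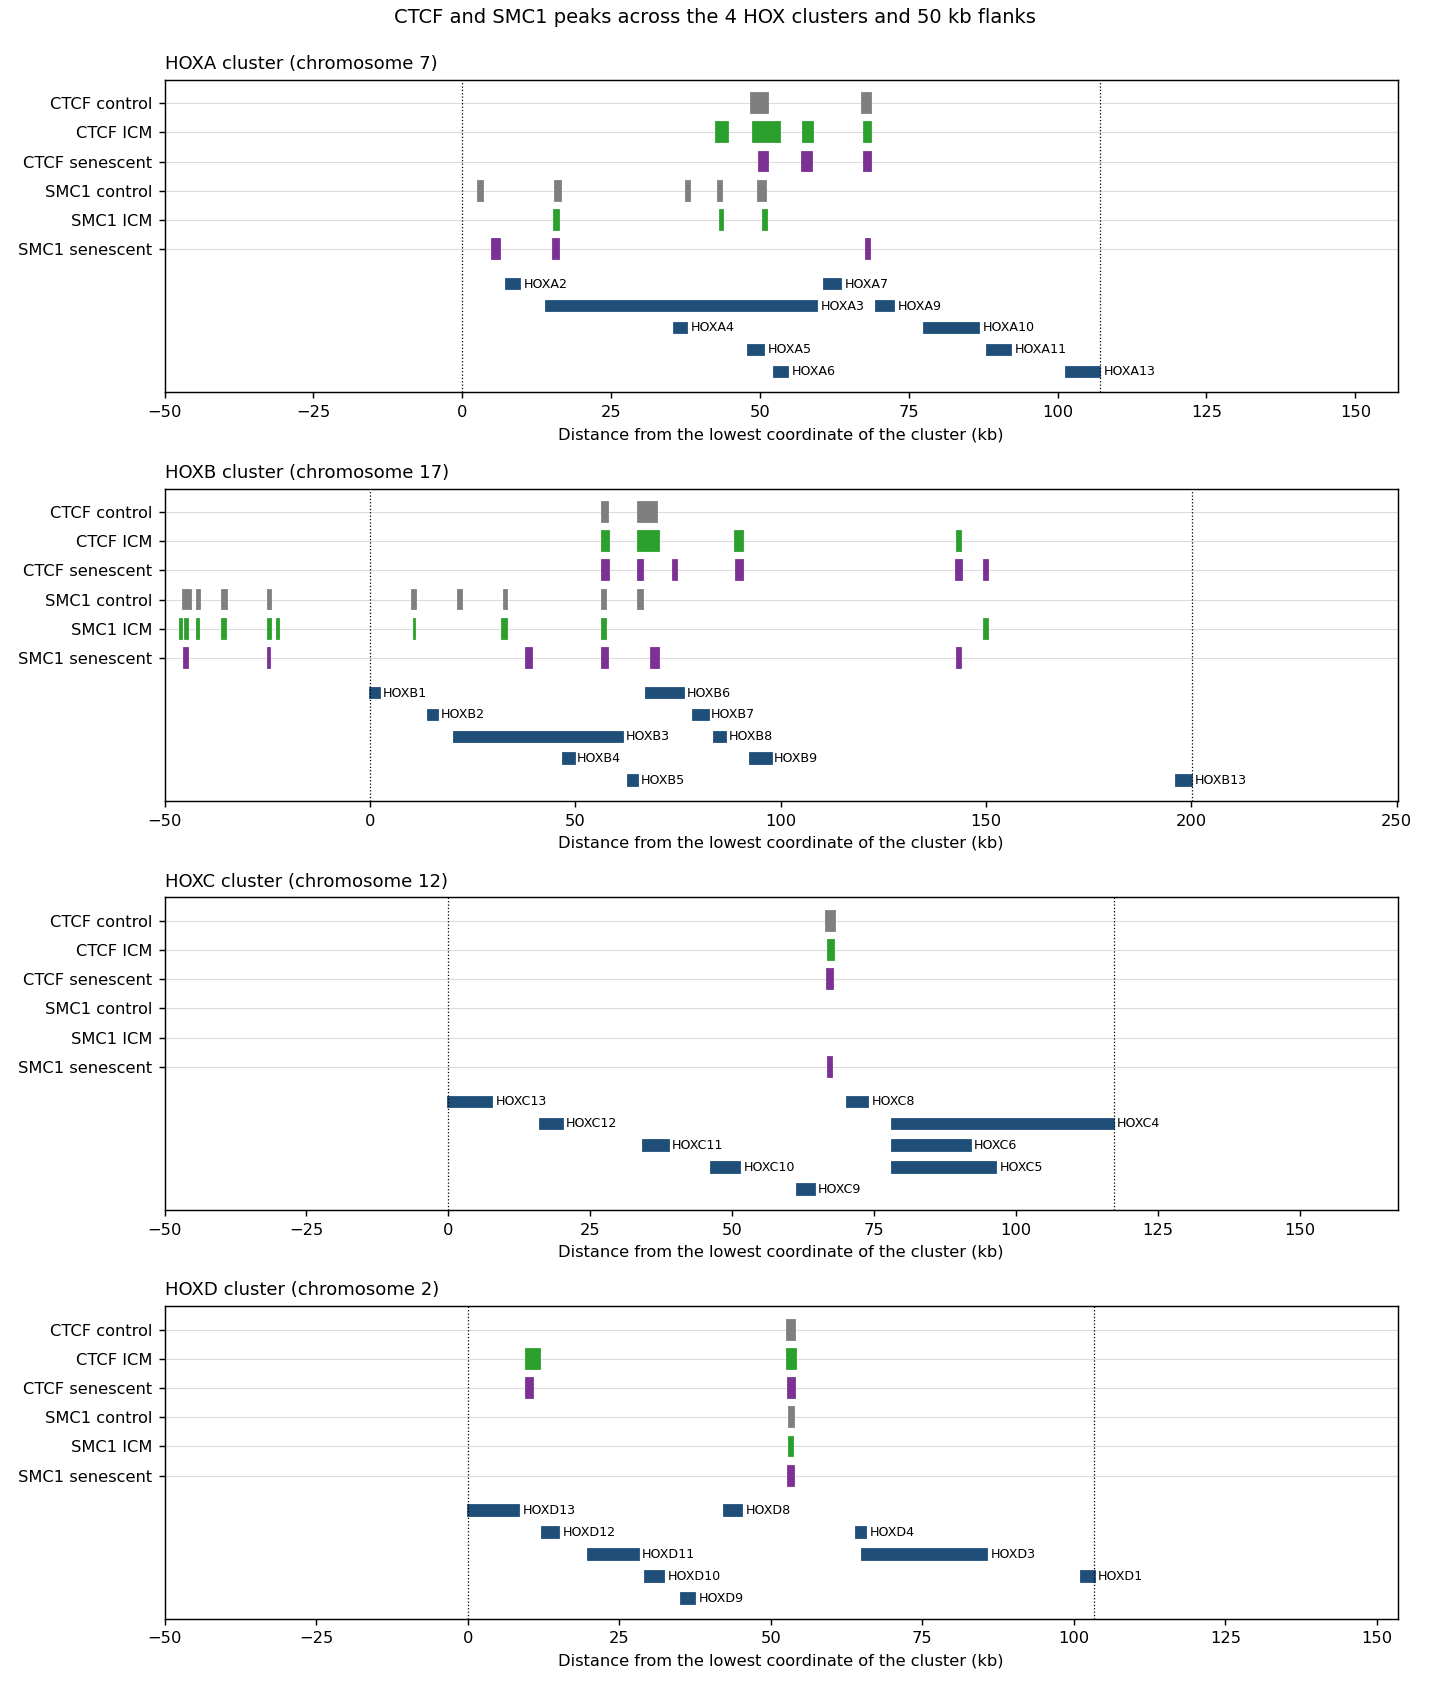
Peaks of the 6 lists along the 4 HOX clusters. The horizontal axis gives the distance in kb from the lowest coordinate of each cluster, each row of coloured boxes is 1 list drawn to scale, blue boxes are named HOX genes and dotted lines are the ends of the cluster. CTCF boxes stay within the dotted lines in all 4 clusters, while 6 SMC1 loci lie to the left of HOXB1, and HOXC holds 1 place.

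A set of 5 CTCF loci was found in all 3 lists, which was 31.2% of 16 (95% interval 11 to 58.7) beside 26.8% over the genome. In lists shortened to equal length the share was 10% of 10 loci, and the HOXA7/HOXA9 site was the one that remained in all 3. The genome share at that length is not given here, so this 10% cannot be set beside the 26.8% of the full lists. A further 3 loci were held by ICM and senescent cells without control (18.8%, genome 13.1%), 3 by ICM cells alone (18.8%, genome 14.1%), 4 by senescent cells alone (25%, genome 31.8%) and 1 by control cells alone (6.25%, genome 5.41%). None was shared by control and ICM only (genome 5.1%) or by control and senescent only (genome 3.71%). Thus the HOX loci fell into the classes at shares near those of the genome, within intervals that 16 loci leave wide. Read pair by pair, 83.3% of the 6 control peaks recurred in ICM cells and as many in senescent cells, beside 77.8% and 74.4% of the whole control list. Of the 11 ICM peaks, 5 (45.5%) recurred in control and 8 (72.7%) in senescent cells, beside 54.0% and 67.5% of the ICM list. Of the 12 senescent peaks, 5 (41.7%) recurred in control and 8 (66.7%) in ICM cells, beside 40.5% and 52.9%. These are exact Clopper-Pearson intervals, and they cover the counting of loci and no variation between cultures.

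The HOXA7/HOXA9 site was the steadiest of the CTCF sites by position and rank. Its summit fell on the same base, chr7:27161076, in every list, 4401 bp upstream of HOXA7 in the space before HOXA9, and these genes act in the thoracic and more posterior trunk. By total signal the peak stood at percentile 73.5 of the control list, 81.4 of the ICM list and 76.0 of the senescent list. It was the highest-ranked CTCF peak of the windows in control cells. SMC1 was listed there in senescent cells alone, 4 bp from the CTCF summit and low in its list, at percentile 3.13. In the other 2 conditions the nearest SMC1 summits were 17294 bp (control) and 17289 bp (ICM) away.

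The site between HOXB4 and HOXB5 carried both proteins in every condition. It spans chr17:48584973-48586781 and falls inside the long annotated HOXB3 gene, 4674 to 4736 bp downstream of its 5′ end. HOXB4 acts in blood stem cells and HOXB5 in the developing lung and gut. The CTCF peak stood at percentile 52.8 in control, 63.6 in ICM and 31.5 in senescent cells. The SMC1 peak at the same place stood at 56.0, 86.8 and 78.3. CTCF and SMC1 summits were 3 bp apart in control, 62 bp in ICM and 31 bp in senescent cells.

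The site between HOXD8 and HOXD4, chr2:176140229-176141674, was the other place listed for both proteins in all 6 lists. It lies 10689 to 10759 bp upstream of HOXD4, an anterior gene of the hindbrain and neck. Its CTCF peak stood at percentile 56.2 in control, 25.7 in ICM and 78.9 in senescent cells, the highest CTCF rank of the windows in senescent cells. By total signal its SMC1 peak stood at 0.931, 22.2 and 78.1. On that measure it was among the last peaks kept in control and well up the list in senescent cells. By highest signal the SMC1 peak stood at 40.1, 10.9 and 89.6, so there it ranked lower in ICM cells than in control.

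HOXC had a single CTCF site, 2812 to 2822 bp upstream of HOXC8, between that gene and HOXC9, both of which pattern the thoracic region. Its summits lay within 10 bp of each other in the 3 lists. The peak stood at percentile 20.1 in control, 6.11 in ICM and 63.6 in senescent cells. SMC1 joined it in senescent cells alone, 7 bp from the CTCF summit, at percentile 46.6. In control and ICM cells the nearest SMC1 summits were 208760 and 208650 bp from this site, beyond the window.

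The promoter of HOXA5 (NCBI gene 3202), a gene needed for the lung and airway, was the remaining locus of all 3 CTCF lists. The summits lay 163 bp (control), 157 bp (ICM) and 146 bp (senescent) upstream of its 5′ end, over the antisense gene HOXA-AS3 as well. The control peak was 2876 bp wide and stood at percentile 56.2, the ICM peak 4515 bp and 82.6, and the senescent peak 1521 bp and 34.7. By highest signal the same peaks stood at 19.0, 55.1 and 38.1, so the control peak ranked higher by its total than by its maximum. SMC1 was listed 101 bp upstream in control (percentile 70.3) and 106 bp upstream in ICM cells (44.1). In senescent cells the nearest SMC1 summit was 17391 bp from the HOXA5 start.

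**Figure D2:**
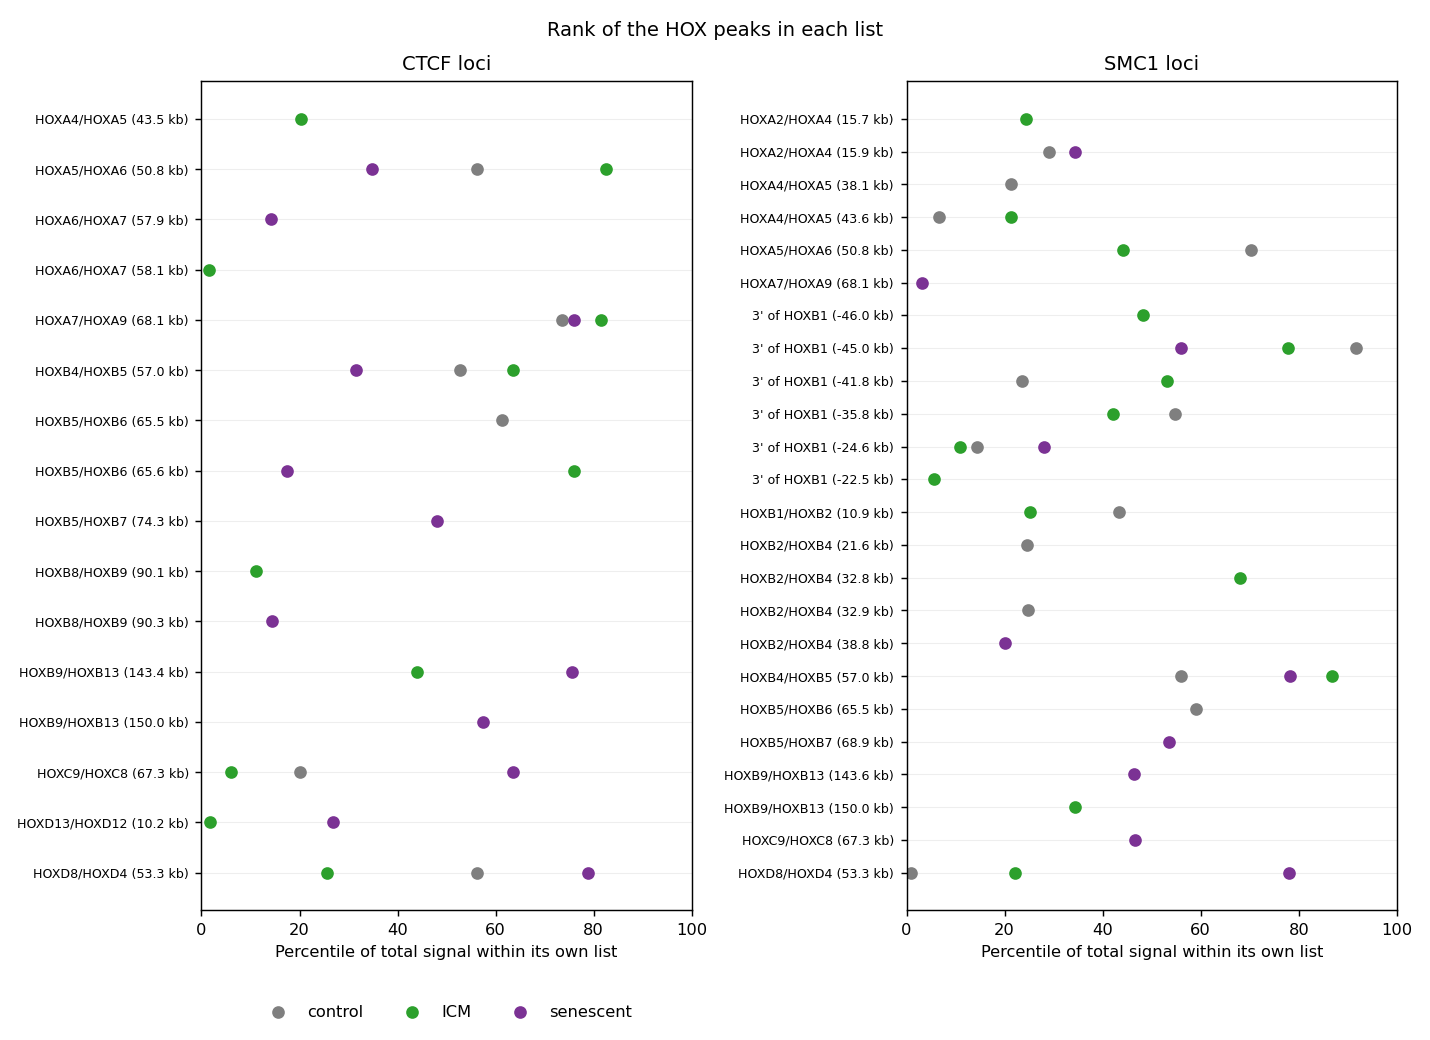
Rank of HOX peaks by total signal within its own list, for CTCF (left) and SMC1 (right). Each row is a locus, named by the HOX genes on either side and its distance in kb from the lowest coordinate of the cluster, and points are coloured by condition. The CTCF points of HOXA7/HOXA9 lie between 73.5 and 81.4, while those of HOXD8/HOXD4 spread from 25.7 to 78.9.

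The ranks of these 5 sites differed between lists in different directions. The ICM rank minus the control rank was 26.5 percentile points at the HOXA5 site, 10.8 at HOXB4/HOXB5, 7.9 at HOXA7/HOXA9, -14.0 at HOXC9/HOXC8 and -30.5 at HOXD8/HOXD4. The senescent rank minus the control rank was 43.5 at HOXC9/HOXC8, 22.7 at HOXD8/HOXD4, 2.49 at HOXA7/HOXA9, -21.5 at HOXA5 and -21.3 at HOXB4/HOXB5. So by total signal 4 of the 5 had opposite signs in the 2 conditions. Of these, HOXA5 and HOXB4/HOXB5 ranked higher in ICM and lower in senescent cells than in control. Among the 3055 CTCF loci of the genome in all 3 lists, 76.1% ranked higher in ICM and 79.6% higher in senescent cells than in control, 13.7% ranked higher in ICM and lower in senescent cells, and 17.2% the reverse. Their 5th and 95th percentiles were -15.1 and 43.5 points in ICM and -21.6 and 59.7 in senescent cells, with the HOXD8/HOXD4 shift in ICM outside this range and the other HOX shifts inside. The signs depended in part on the measure. By highest signal, in control, ICM and senescent cells, HOXA5 stood at 19.0, 55.1 and 38.1 and HOXC9/HOXC8 at 31.7, 46.3 and 67.4. Both thus ranked above control in both conditions. HOXA7/HOXA9 stood at 80.8, 85.3 and 63.9, below control in senescent cells. The signs at HOXB4/HOXB5 and HOXD8/HOXD4 were the same by either measure. Ranks within lists of unequal length are not amounts of protein, and no signal was compared between lists.

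CTCF was listed at 4 further places in both ICM and senescent cells without any overlapping control peak. This count goes by overlap of whole peaks, unlike the classes above, and no genome share is given for it. Both lists are also longer than the control list, so the count is not read as particular to HOX. Between HOXD13 and HOXD12, genes of the digits and the genital bud, the summits fell on the same base in both lists, 2080 bp upstream of HOXD12, with the nearest control summit 43076 bp away. This peak stood at percentile 1.67 in ICM and 26.9 in senescent cells. Between HOXB9 and HOXB13, over the noncoding gene LINC02086 and some 45.5 kb from HOXB9, summits 22 bp apart stood at 44 in ICM and 75.6 in senescent cells, and the nearest control summit was 77879 bp from the ICM one.

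The other 2 of these places had summits too far apart to be joined by the 100 bp rule, although the whole peaks overlapped. At the inner start of HOXA3, printed above, the ICM summit lay 153 bp upstream and the senescent summit 39 bp downstream of the annotated base. They ranked at 1.53 and 14.1 by total signal and at 7.78 and 1.2 by highest signal. Upstream of HOXB8, a trunk gene, the ICM summit at 3374 bp and the senescent one at 3491 bp ranked at 11.1 and 14.4. SMC1 was listed at neither place. These peaks rank low in lists that are longer than the control list. When all CTCF lists were shortened to the 4673 strongest peaks of each, the LINC02086 place remained in both conditions and the HOXD13/HOXD12, HOXA3 and HOXB8 places were in none. How far the length of the lists accounts for their absence from control was not tested beyond this.

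At HOXB5 (NCBI gene 3215), the second HOX gene with CTCF at its promoter in every list, the summit rule and the whole peaks also parted. The control summit lay 243 bp upstream of the 5′ end, and the ICM and senescent summits lay 393 and 384 bp upstream. The rule therefore counted a control locus and an ICM and senescent locus, although all 3 peaks overlapped. The control peak was 4590 bp wide and the ICM peak 5147 bp, wider than 98.7% and 98.4% of their lists, while the senescent peak was 1063 bp wide, at width percentile 45.0. Total signal put them at 61.3, 76.0 and 17.5, and highest signal at 19.0, 20.7 and 16.3. The control and ICM peaks reached into the annotated HOXB6 gene next to it and ranked low by highest signal. SMC1 in control cells had its summit 26 bp from that of CTCF.

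The last CTCF peaks were seen in 1 condition each. Between HOXA4 and HOXA5 a peak of ICM cells stood at percentile 20.4, 5777 bp upstream of HOXA4, and SMC1 was listed 62 bp from it. Inside HOXB6, 2185 bp from its 5′ end, a peak of senescent cells stood at 48.1. Near LINC02086 a second senescent peak stood at 57.5, at chr17:48678573, where ICM cells had an SMC1 summit at chr17:48678571 but no CTCF peak.

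**Figure D3:**
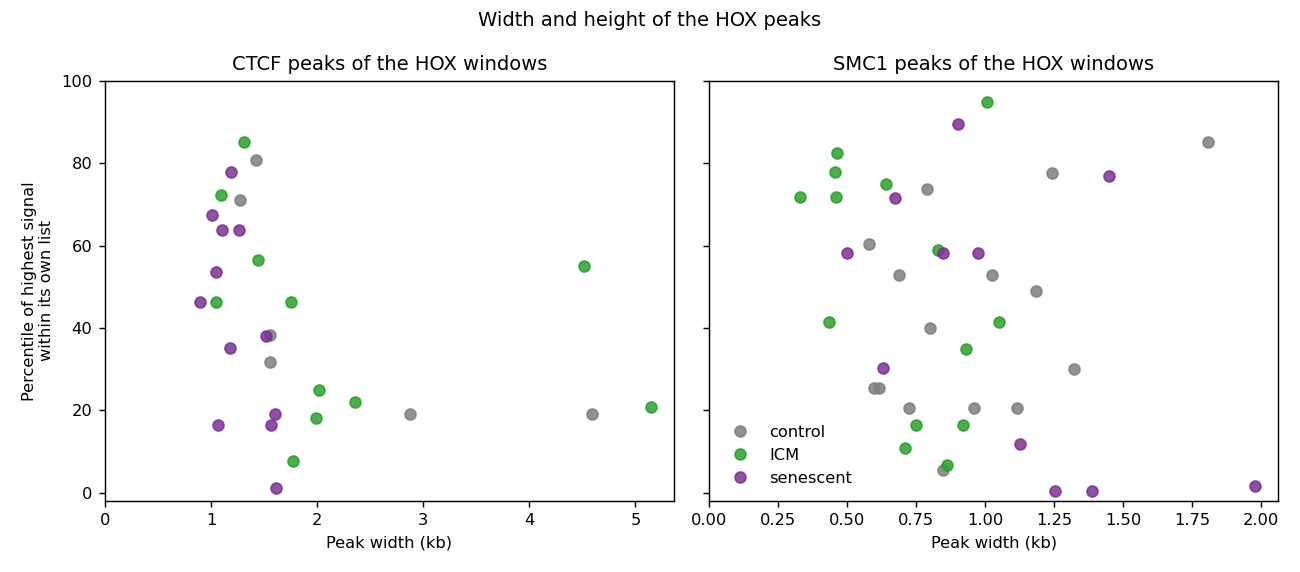
Width in kb against the percentile of highest signal within its own list, for the CTCF (left) and SMC1 (right) peaks of the HOX windows, coloured by condition. The 3 CTCF points beyond 4 kb are those of HOXA5 in ICM and of HOXB5 in control and ICM cells, and the 3 senescent SMC1 points lowest on the vertical axis are broad and flat.

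SMC1 accompanied CTCF at 4 of 6 HOX sites in control cells, 4 of 11 in ICM cells and 4 of 12 in senescent cells, counting summits less than 100 bp apart. These were 66.7% (95% interval 22.3 to 95.7), 36.4% (10.9 to 69.2) and 33.3% (9.92 to 65.1), beside 48.9%, 46.6% and 34.8% of the whole CTCF lists. The intervals include the share of the whole list in each condition. Each share pairs separate libraries, labelled p21 for CTCF and p16 for SMC1 in control. In ICM cells the days of treatment are stated for CTCF only. The HOXB4/HOXB5 and HOXD8/HOXD4 sites were among the 4 in every condition. The HOXA5 promoter was among them in control and ICM cells, and the HOXA7/HOXA9 and HOXC9/HOXC8 sites only in the senescent lists. Counted by whole peaks, ICM cells had 36.4% (10.9 to 69.2) beside 72.6% of the list, which lies outside the interval, control 66.7% beside 75.8% and senescent cells 41.7% beside 50.2%. From the side of SMC1, 4 of 15 peaks in control, 4 of 14 in ICM and 4 of 11 in senescent cells had CTCF at the summit, that is 26.7%, 28.6% and 36.4% beside 15.4%, 17.6% and 23.1% of the lists.

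Across both antibodies, the peaks of the windows joined by overlap into 27 regions, of which 2 appeared in all 6 lists (7.41%, against 9.89% of such regions in the genome). They were the HOXB4/HOXB5 and HOXD8/HOXD4 sites. Of the 27 regions, 9 held both proteins and 8 appeared in 1 list. Shares over all regions of the genome are not given for these counts, so whether they are usual cannot be said. Joined by summits in place of whole peaks there were 34 regions, and the same 2 sites made up 5.88% of them, against 4.35% in the genome.

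The SMC1 loci of the HOX windows fell into classes whose intervals included the shares of the genome. Of 26 loci, 4 were in all 3 lists (15.4%, interval 4.36 to 34.9, genome 20.2%), 5 in control and ICM (19.2%, genome 15.5%), 1 in control and senescent cells (3.85%, genome 3.7%) and none in ICM and senescent cells (genome 5.52%). Single lists accounted for 5 in control (19.2%, genome 14.5%), 5 in ICM (19.2%, genome 23.2%) and 6 in senescent cells (23.1%, genome 17.4%). Of the 15 control peaks, 5 (33.3%) recurred in senescent cells, beside 44.3% of the whole control list, and 9 (60.0%) recurred in ICM cells, beside 66.3%. Of the 14 ICM peaks, 9 (64.3%) recurred in control, beside 55.4%, and 4 (28.6%) in senescent cells, beside 39.9%. Of the 11 senescent peaks, 5 (45.5%) recurred in control and 4 (36.4%) in ICM cells, beside 51.0% and 54.9%.

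At HOXA4 the control list had SMC1 near the gene start where the ICM and senescent lists had none. The control summit lay 292 bp upstream (percentile 21.4). It had no counterpart in the ICM or senescent list, where the nearest summits to HOXA4 were 5839 and 21854 bp away. Between HOXA4 and HOXA5 a locus was shared by control (6.71) and ICM cells (21.3), and there CTCF was listed in ICM cells as given above. Upstream of HOXA2, inside the long HOXA3 annotation, SMC1 was listed in each condition at 29.0, 24.3 and 34.4 for control, ICM and senescent cells, with overlapping peaks, though the ICM summit was 284 bp from the control one.

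Within HOXB the control list had SMC1 between HOXB1 and HOXB2 (percentile 43.4), as did ICM cells (25.2), and over the antisense gene HOXB-AS2 inside HOXB3 (24.7), where the ICM peak ranked at 68.1. HOXB5 had its SMC1 promoter peak in control cells alone, 217 bp upstream, at 59.0. A peak over HOXB-AS1 (24.5) was listed in control alone. None of these was in the senescent list. Beside the HOXA7/HOXA9 and HOXC9/HOXC8 sites, that list had further peaks of its own, among them ones inside HOXB3 (20), inside HOXB6 (53.6) and at LINC02086 (46.3), the last overlapping the CTCF peak described above. Those inside HOXB3 and HOXB6 were flat, with highest signals of 4 and 5. Peaks with a highest signal of 5 or less made up 3 of 11 in the HOX windows and 2.78% of the senescent SMC1 list, a limit set after these values were seen.

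The SMC1 loci 3′ of HOXB1 numbered 4 in control, 6 in ICM and 2 in senescent cells. The nearest CTCF summit of the same condition was at least 79509 bp from each of them. The strongest, chr17:48483107-48484913, 47398 to 47465 bp from HOXB1, stood at percentile 91.7 in control, 77.9 in ICM and 56.0 in senescent cells, the highest SMC1 rank of the windows in control. A second, at chr17:48503621-48504433, was listed at 14.3, 10.8 and 28.0. For the 4 SMC1 loci of all 3 lists, the senescent rank minus the control rank was 77.2 points at HOXD8/HOXD4, 22.4 at HOXB4/HOXB5, 13.7 at the second flank locus and -35.7 at the first. Over 5574 such loci of the genome 43.6% ranked higher in senescent cells than in control. Their 5th and 95th percentiles were -51.3 and 42.7 points, a range that the HOXD8/HOXD4 shift exceeded. These shifts are by total signal, and by highest signal the HOXD8/HOXD4 peak stood at 40.1 in control and 89.6 in senescent cells.

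Promoter peaks of SMC1 were scarce at HOX genes when set beside other coding genes. With a summit within 1 kb of the outermost 5′ end, 4 of 39 HOX genes had one in control (10.3%), HOXA4, HOXA5 and HOXB5 among them, 1 in ICM (HOXA5; 2.56%) and none in senescent cells. Over 19121 protein-coding genes the shares were 31.9%, 27.9% and 22.5%. CTCF was at HOXA5 and HOXB5 alone in each list (5.13% of 39), beside 8.86%, 12.8% and 9.66% of coding genes. No promoter peak of either protein was listed for any of the 18 genes of HOXC and HOXD. HOXC4, HOXC5 and HOXC6 share one annotated 5′ end, and neighbours share the same sites, so these genes are not independent of each other.

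**Figure D4:**
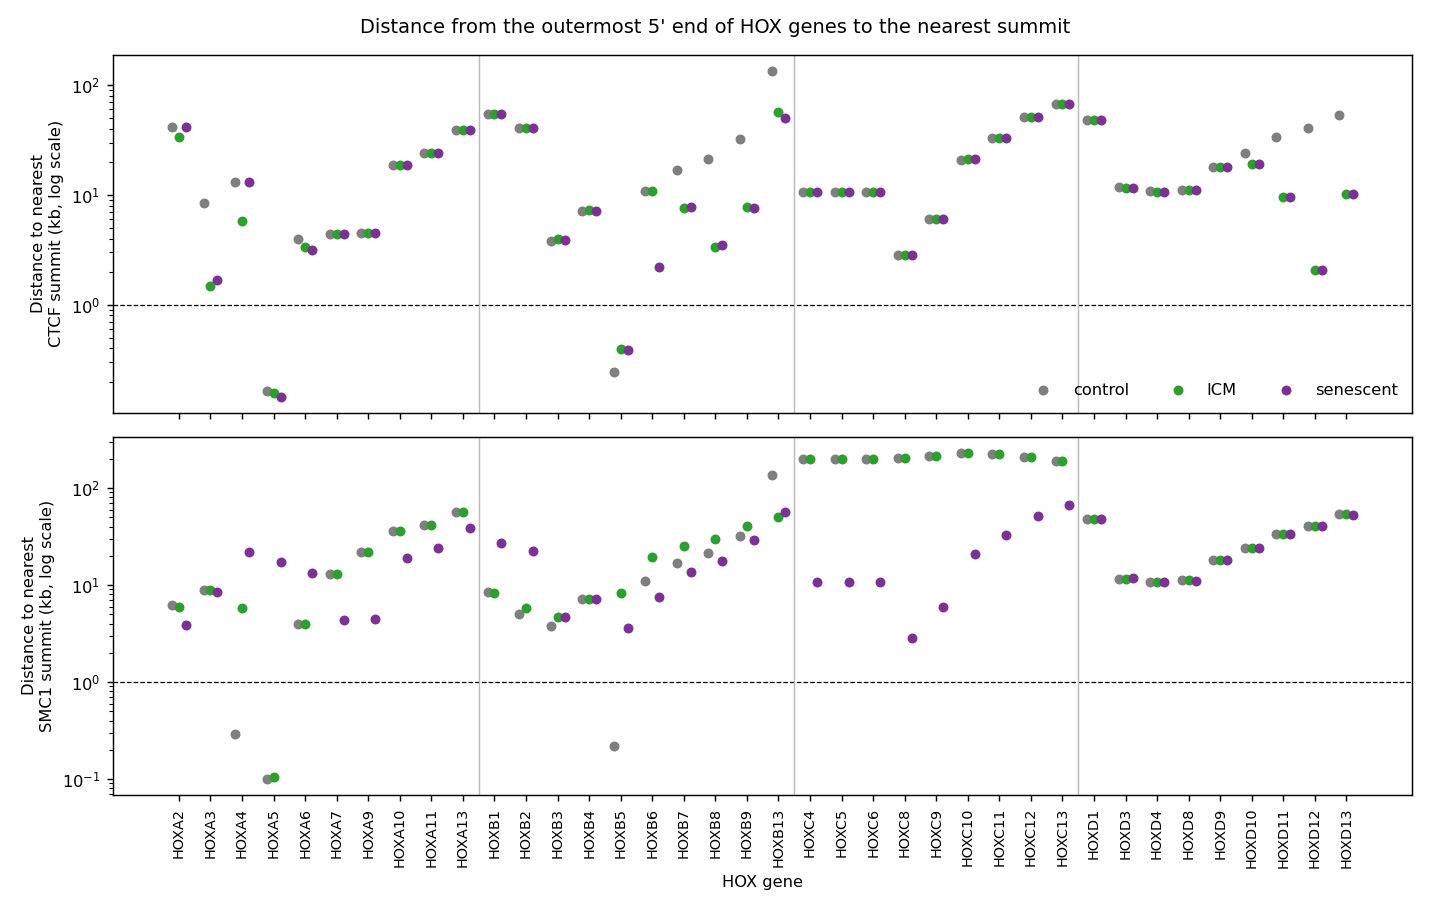
Distance in kb on a log scale from the outermost 5′ end of each HOX gene named on the axis to the nearest CTCF summit (top) and SMC1 summit (bottom), coloured by condition, with a dashed line at 1 kb and grey lines between clusters. HOXA5 and HOXB5 are the genes with CTCF points under the line, and the 9 HOXC genes have SMC1 points beyond 100 kb in control and ICM cells and within 67.3 kb in senescent cells.

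By distance the comparison turned the other way, and HOX genes lay nearer to CTCF summits than coding genes did. The median distance from a HOX 5′ end to the nearest CTCF summit was 18.1 kb in control and 10.7 kb in ICM and in senescent cells, beside 115, 67.4 and 57.0 kb for coding genes. Within 10 kb lay a CTCF summit for 10, 16 and 16 of the 39 genes, beside 16.2%, 22% and 21.4% of coding genes. Neighbouring HOX genes share sites, and all HOXC genes take their distance from the CTCF site upstream of HOXC8. The distances of the 39 genes are therefore not independent of each other, unlike those of genes scattered over the chromosomes. The HOXA median was 13.1 kb in control, 5.78 in ICM and 13.1 in senescent cells. The HOXB median went from 19.1 kb in control to 7.67 in ICM and 7.37 in senescent cells, and the HOXD median from 24.0 to 11.2 in both, whereas the HOXC median was 10.7 in each list. HOXB13, a gene of the prostate and tail region that lies apart from its cluster, was 134728 bp from a CTCF summit in control, 56849 in ICM and 50177 in senescent cells.

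For SMC1 the median distance was 21.8, 25.5 and 17.4 kb at HOX genes and 21.2, 23.5 and 34.3 kb at coding genes. HOXC had the longest median of the 4 clusters in control and ICM cells, 206 kb in both, and the shortest in senescent cells, 10.7 kb, where the nearest summit was the one upstream of HOXC8. HOXA went from 8.8 kb in control to 12.7 in ICM and 13.3 in senescent cells. The posterior genes HOXA10, HOXA11 and HOXA13, which act in limbs and the urogenital tract, were 36079, 41450 and 56309 bp from SMC1 in control and 18789, 24160 and 39019 bp in senescent cells, where the nearest summit was that between HOXA7 and HOXA9.

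None of the 8 microRNA genes annotated in the windows was overlapped by a peak. MIR10A, between HOXB4 and HOXB5, was nearest, 5.6 kb from a summit, followed by MIR196B beside HOXA10 at 8.4 kb and MIR10B beside HOXD4 at 9.5 kb. These microRNAs are known to repress HOX transcripts.

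Genes that work with HOX proteins or regulate the clusters were examined as a list beside them. CTCF was at none of their promoters, where coding genes had it at 8.86%, 12.8% and 9.66% in control, ICM and senescent cells. The shares of coding genes with SMC1 were 31.9%, 27.9% and 22.5%. For SMC1, 5 of 9 cofactors of the PBX, MEIS and PKNOX families, which bind DNA together with HOX proteins, had a promoter peak in control, 3 in ICM and 2 in senescent cells. PKNOX1 had it in each list, with summits 283, 283 and 203 bp from its start in control, ICM and senescent cells. MEIS1 had it in control alone, at 55 bp, while the nearest summits in the other lists were 61088 and 404866 bp away. PBX3 fell just outside the limit, at 1189 bp in every list. Of 6 regulators, 4 had a promoter peak in control, 2 in ICM and 4 in senescent cells. EZH1, a Polycomb methyltransferase, and KMT2A, a methyltransferase that maintains HOX expression, had it in each list. EZH2, the main Polycomb methyltransferase of dividing cells, had it in control alone, 113 bp from the start, with the nearest summit 111484 bp away in ICM and 111455 bp away in senescent cells. MEN1, a partner of KMT2A, had it in senescent cells alone, at 589 bp. The homeobox genes EVX1 and EVX2, which adjoin HOXA and HOXD, had none.

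As a group the HOX peaks had median ranks between percentile 24.7 and 58.3 in the full lists, depending on list and measure. In lists of equal length the ICM CTCF peaks had a median of 65.4. The values of the HOX peaks in the full lists follow. Their median percentile by total signal was 56.2, 25.7 and 41.4 for CTCF in control, ICM and senescent cells and 24.7, 38.2 and 46.3 for SMC1. By highest signal the medians were 35.0, 46.3 and 42.2, and 40.1, 50.2 and 58.3. The ranges were broad, from 1.53 to 82.6 for CTCF in ICM cells and from 0.931 to 91.7 for SMC1 in control. Median widths were close to those of the lists, at 1551.5 bp beside 1797, 1774 beside 1960.5 and 1183 beside 1120 for CTCF, and 848 beside 911, 728 beside 754 and 974 beside 1005 for SMC1.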

How the data were processed

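Peak lists of 6 CUT&Tag libraries of IMR90 cells were used. Per the methods of the study and the submitters' processing notes, the authors aligned paired reads to the GRCh38 genome and to E. coli with Bowtie2 2.3.4.1, used Picard 2.20.7 and deepTools, and called peaks with SEACR 1.3 in stringent mode for each library, keeping the top 1% of regions. For CTCF the paper also considered only peaks with a canonical CTCF motif. It counts slightly fewer CTCF peaks in each condition than the lists used here hold, and whether these lists passed that filter was not established. The deposited columns give total signal and highest signal, which are coverage summed over the peak and its maximum. All were whole numbers, no scale common to the lists could be established, and the lists give no read counts, so the depth is unknown and signal was ranked within each list.

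Peaks were assigned by summit, the midpoint of the region of highest signal, leaving out the mitochondrial peak. Peaks of an antibody were joined into loci where 100 bp summit windows overlapped by at least 1 bp. Gene positions came from the RefSeq table of GRCh38.p14 and strands, matched by symbol and chromosome, from GENCODE. Intervals are exact 95% Clopper-Pearson intervals. Computation used Python 3.11.15, pandas 2.3.3 and scipy 1.17.1, and the joining of peaks was tested on simulated data. The genes named were the 39 HOX genes and lists of cofactors, regulators and markers. Some members of these lists are not reported here by name. Members and lists were chosen with earlier results of these data known. No genome sequence of the files' build was used here, so peaks were not searched for motifs. Alternatives were whole-peak overlap, 500 bp windows, equal-length lists, no flanks, 2.5 kb promoters, whole peaks at promoters and ranking by highest signal.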

Additional observations from a re-analysis of the deposited data

Results flagged for a closer look

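The 2 antibodies differed in the direction of the change in peak number in the HOX windows. The senescent list minus the control list came to 6 peaks for CTCF and to -4 for SMC1. With the flanks left out, SMC1 had 11 peaks in control and 9 in senescent cells. Each comparison is of 1 library with 1 library, the whole lists also differ in length in these directions, and the difference was not tested.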

How the results depend on the processing

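Of 70 values recomputed under the alternatives, 64 moved by less than their interval or stayed within 1.5 times, and 6 moved. With the lists of each antibody shortened to equal length, the CTCF loci fell from 16 to 10, the share in all 3 lists from 31.2% to 10%, and the senescent CTCF promoter genes from 2 to 0. The median percentile of the ICM CTCF peaks went from 25.7 to 65.4 there, within its interval. Within 2.5 kb the CTCF promoter genes numbered 4 in ICM and 5 in senescent cells in place of 2, and with whole peaks within 1 kb they numbered 4 in ICM cells. The equal-length lists hold fewer peaks by construction. For the other settings the added genes come with the wider limit. Joining by whole peaks or by 500 bp windows gave 13 CTCF loci, 46.2% of them in all 3 lists, and 24 SMC1 loci with 20.8%. Genome shares under these settings and at equal length are not given, so these HOX shares cannot be set beside those of the genome. Adding inner RefSeq starts, an alternative chosen after seeing the data, gave 3 CTCF promoter genes in ICM and 3 in senescent cells. No paired analysis was possible because each group had 1 library. Depth limits these lists in a way that cannot be given, since they hold no read counts.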
